A study of Tradescantia spathacea with 6 samples.

Results

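A set of 121 assembled genes of Tradescantia spathacea leaves met a rule for higher read counts in full sunlight than in low light. For 1 of them, described below, the rule only compared 0 with 0. The 121 were picked from 91987 genes by their CPM, a gene's count per 1000000 counts of its library. A gene had to average 10 to under 500 CPM over the 6 libraries, and its lowest full sunlight value had to be at least 2 times its highest low light value. A gene was dropped if another gene of its assembly component was clearly higher in low light, that is by at least 1.5 times between the lowest low light and the highest full sunlight value. The component is the part of the identifier before its gene number, and its entries were joined by the assembler through shared sequence. Of 15284 genes in this range of abundance, 122 met the ratio, 1 was dropped, and the 121 left are 0.792% of the range.

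Tradescantia spathacea is a monocot ornamental grown for leaves that are green above and purple below. Leaves of plants kept in full sunlight (100%) gave 3 libraries, and leaves of plants kept at 30% of full sunlight, called low light, gave the other 3. The libraries are called FL1 to FL3 for full sunlight and LL1 to LL3 for low light. Both groups had 2 years to acclimate, and the labels name no other treatment. No label ties a library to a plant, a harvest or a sequencing run, so any p-value given here reflects differences among single libraries, which may be technical.

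Leaves in strong light absorb more energy than carbon fixation can use, and plants meet this with photoprotection. Anthocyanins, purple pigments of the flavonoid pathway, absorb part of the light, while shaded leaves put more of their resources into light harvesting. By its title, the study weighed anthocyanin protection against photosynthetic capacity. The table pairs its identifiers with no gene names, functions or sequences, so no gene below can be assigned to either process, and the labelled tissue could not be checked against marker genes. Most genes are therefore described by their rank and values, and only 4 identifiers are printed.

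Total counts were 14748349 to 15958899 in full sunlight and 14961576 to 15084473 in low light. Genes of the abundance range held 71.9% to 75.9% of the counts in full sunlight and 68.2% to 70.6% in low light. The trimmed mean of M values (TMM, a scaling that evens out differences of composition) gave factors of 1.03 to 1.12 in full sunlight and 0.929 to 0.953 in low light. On TMM-scaled CPM, 74 of the 121 genes met the same rule and no others did. The rule also depended on single libraries: it took 325 genes when FL2 was left out and 282 when LL2 was. CPM values below are by library size, as the rule used, unless TMM is named. Log2 fold changes come from a fit with TMM unless another scaling is named. They can therefore differ from the ratio of the CPM printed beside them.

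One entry met the rule only because 0 was compared with 0. TRINITY_DN49_c0_g5 had 4360 counts in FL1, or 296 CPM, and 0 counts in FL2 and FL3 and in all 3 low light libraries. In those 5 libraries a count of 0 is compatible with 0.188 to 0.201 CPM at most (3 counts, for counting error only). The other 4 entries of its component were read in all 6 libraries. The most abundant of them had 71.3, 54.0 and 66.2 CPM in FL1 to FL3 and 49.8, 54.9 and 46.2 CPM in LL1 to LL3. TRINITY_DN49_c0_g5 did not pass the low-count filter of the fit across all genes and is left out of what follows, which concerns the other 120 genes, each with at least 19 counts in every library. All 120 passed that filter.

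Together the 120 genes held 0.848%, 0.659% and 0.755% of all counts in FL1 to FL3, and 0.205%, 0.241% and 0.220% in LL1 to LL3. The means were 0.754% ± 0.0940 in full sunlight and 0.222% ± 0.0181 in low light (SD, n = 3 each), a gap that the rule itself sets. In bulk leaf samples, fewer cells of a type and less RNA per cell cannot be told apart. The median gene of the set stood at 41.2, 31.5 and 37.6 CPM in the full sunlight libraries and at 8.58, 11.7 and 10.6 CPM in the low light libraries. The levels varied widely: 11 of the genes had at least 100 CPM in every full sunlight library, while 55 stayed under 10 CPM and 7 under 5 CPM in every low light library. By mean level, 53 of the 120 lay at 10 to under 20 CPM, 37 at 20 to under 50 CPM, 23 at 50 to under 100 CPM and 7 at 100 CPM or more. These were 0.988%, 0.632%, 0.912% and 0.452% of all genes in each of these bands.

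**Figure D1:**
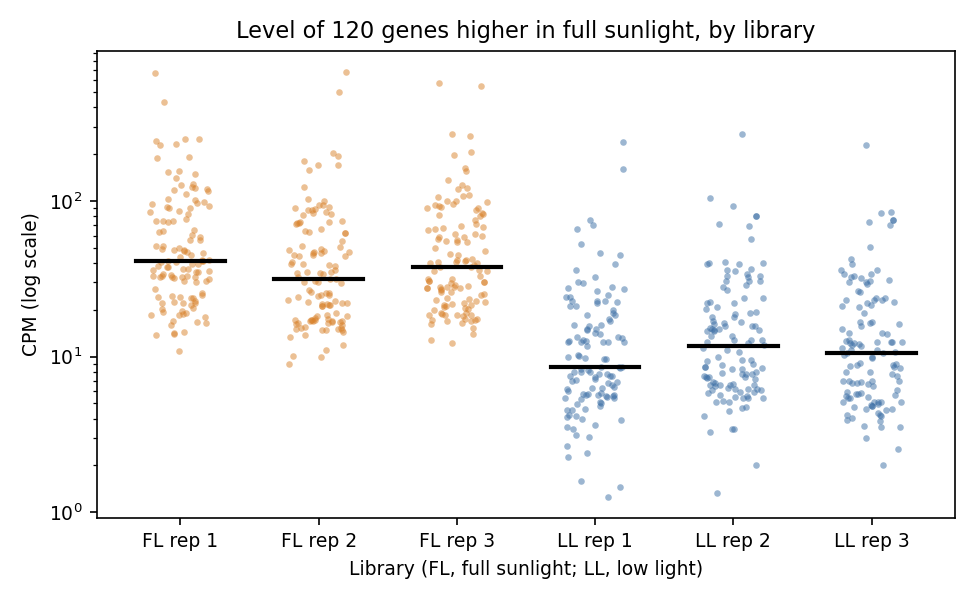
CPM of the 120 genes (points, log axis) in each full sunlight (FL) and low light (LL) library, with the median as a black line. The medians are 41.2, 31.5 and 37.6 CPM in FL1 to FL3 and 8.58, 11.7 and 10.6 CPM in LL1 to LL3.

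Most genes separated the groups by little more than the rule asked. The lowest full sunlight value was 2 to under 2.5 times the highest low light value in 75 genes, 2.5 to under 3 times in 27, 3 to under 4 times in 11 and 4 to under 6 times in 7. The median of this ratio was 2.34. The ratio of group means was larger, with a median of 3.37 and a range of 2.31 to 15.0, and it reached 5 in 18 genes. In the fit across all genes (edgeR quasi-likelihood test with TMM), the median log2 fold change of full sunlight over low light was 1.57, with quartiles of 1.37 and 1.92 and extremes of 1.03 and 3.70. Its standard error (SE) was computed back from the fold change and the F statistic of the test, and had a median of 0.20. Over all 40084 genes tested, the median log2 fold change was 0.02 with TMM and 0.20 with library size alone, so a shift of that order is part of any value on the library-size scale. All 120 genes were called higher at a Benjamini-Hochberg adjusted p under 0.05 by edgeR, where 6.77% of all tested genes were called higher and 8.63% lower. Scaled by library size alone, the same test called 5187 genes higher and 2458 lower, against 2714 and 3459 with TMM. The smallest margin was that of a gene with 16.3, 14.8 and 17.4 CPM in FL1 to FL3, against 1.46, 5.15 and 6.75 CPM in LL1 to LL3, where LL1 was far below LL2 and LL3. Its edgeR adjusted p was 0.0169, and 0.0601 without FL3. The rule used the same contrast, so these calls and fold changes only describe the genes it picked.

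The most abundant gene of the set was TRINITY_DN12982_c0_g1. It had 664, 676 and 553 CPM in FL1 to FL3, against 241, 268 and 230 CPM in LL1 to LL3. The means were 631 ± 67.7 CPM in full sunlight and 246 ± 19.4 CPM in low light (SD, n = 3 each). Its full sunlight values lay within 1.22 times of one another, and its log2 fold change was 1.18 (SE 0.16). This is among the smaller differences of the set, on a transcript with an effective length of only 397 bases. The effective length is the number of positions from which a read can start, and it was computed here from each gene's count and its deposited FPKM (fragments scaled to the gene's length and the library's size). On FPKM, the scale that allows levels of different genes to be compared, it was again the highest of the 120, at 1640, 1696 and 1386 FPKM in full sunlight and 608, 686 and 586 FPKM in low light.

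The gene with the second highest mean had 435, 500 and 570 CPM in FL1 to FL3, against 160, 105 and 84.4 CPM in LL1 to LL3. Here LL1 stood above the other 2 of its group. The gene of rank 3 had 249, 203 and 270 CPM in full sunlight and 75.7, 93.0 and 85.0 CPM in low light. The gene of rank 4 had 250, 194 and 261 CPM in full sunlight, against 70.2, 71.6 and 73.8 CPM in low light, the most even low light values of the 5. The gene of rank 5 had 245, 171 and 206 CPM in full sunlight and 52.7, 80.2 and 76.0 CPM in low light. Their log2 fold changes were 1.93 (SE 0.24), 1.33 (SE 0.15), 1.53 (SE 0.15) and 1.39 (SE 0.18). Unlike the first, these 4 had long effective lengths of 2235 to 3656 bases, and only 4 of the 10 genes with the highest mean CPM were among the 10 highest by mean full sunlight FPKM.

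The widest separation between the groups, by lowest full sunlight over highest low light value, was that of TRINITY_DN4484_c0_g1. It had 140, 101 and 120 CPM in FL1 to FL3, against 13.5, 16.9 and 16.6 CPM in LL1 to LL3. The means were 120 ± 19.7 CPM in full sunlight and 15.6 ± 1.90 CPM in low light (SD, n = 3 each). The lowest full sunlight value was 5.96 times the highest low light value, and the log2 fold change was 2.76 (SE 0.16). The next gene had 155, 87.3 and 66.8 CPM in full sunlight and 13.3, 11.0 and 12.1 CPM in low light, a ratio of 5.04. In this gene the full sunlight libraries differed from each other by up to 2.32 times, while the low light libraries were nearly level.

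Ranks 3 to 5 by separation were taken by less abundant genes. The third had 38.4, 19.2 and 27.7 CPM in full sunlight and 3.65, 3.41 and 3.94 CPM in low light. The fourth had 48.2, 29.6 and 35.6 CPM in full sunlight, against 4.24, 6.22 and 5.48 CPM in low light. The fifth had 31.7, 38.5 and 28.9 CPM in full sunlight and 3.51, 6.15 and 4.54 CPM in low light, and was the only one of these 5 whose highest value was in FL2. The 18 genes with a ratio of at least 3 had a median mean level of 19.5 CPM, against 25.5 CPM for the 75 genes with a ratio under 2.5.

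**Figure D2:**
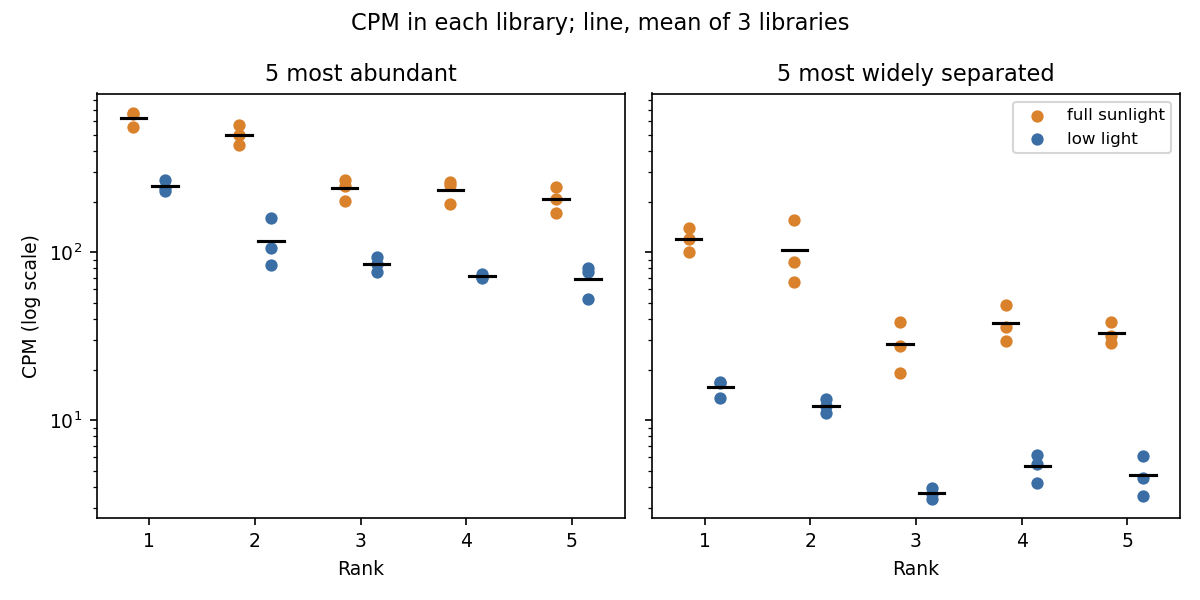
CPM in each library (points, log axis) of the 5 genes with the highest mean CPM (left) and the 5 with the largest ratio of lowest full sunlight to highest low light value (right). Black lines are means of 3 libraries. The gene ranked first on the left has means of 631 CPM in full sunlight and 246 CPM in low light, and the gene ranked first on the right has 120 CPM in full sunlight and 15.6 CPM in low light.

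Genes lay close to the thresholds on both sides. The gene just inside the ratio had 24.9, 25.8 and 21.4 CPM in full sunlight and 8.15, 10.7 and 9.15 CPM in low light. The gene just outside had 194, 90.9 and 167 CPM in full sunlight, against 31.3, 38.4 and 45.5 CPM in low light, a ratio of 1.999 in which FL2 was far below FL1 and FL3. At the lower limit of abundance, the genes on either side averaged 10.1 and 9.78 CPM. With a ratio of 1.5 in place of 2 the rule gave 586 genes, and with 3 it gave 19. Both counts include TRINITY_DN49_c0_g5, which meets any ratio as 0 against 0, and without it 18 genes reached a ratio of 3.

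The dropped gene shared its component with TRINITY_DN24884_c0_g3, which went the other way. The dropped gene had 31.0, 26.3 and 27.2 CPM in FL1 to FL3 and 5.83, 6.75 and 5.88 CPM in LL1 to LL3, a log2 fold change of 2.01 (SE 0.16). TRINITY_DN24884_c0_g3 had 3.39, 3.51 and 3.94 CPM in full sunlight, against 12.5, 20.2 and 15.9 CPM in low light, and its log2 fold change was -2.34 (SE 0.22). In both entries the groups did not overlap. Whether the 2 entries are separate genes, copies or transcripts of 1 gene is not known from the table.

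The full sunlight libraries were not equal in these genes, and FL2 was usually the lowest. FL2 held the lowest of the 3 full sunlight values in 87 of the 120 genes (72.5%), FL3 in 18 and FL1 in 15. Among all 15284 genes of the same abundance range, FL2 was the lowest in 46.8%. FL1 was the highest in 71 genes (59.2%), against 45.2% of the range. FL1 above FL3 above FL2 was the order of 60 genes, and FL3 above FL1 above FL2 that of 27. Relative to the mean of the other 2 full sunlight libraries, FL2 had a median log2 ratio of -0.30 in the 120 genes and -0.08 in the range. These shares are descriptions: genes of 1 library share that library's depth and composition, and 1 library cannot be tested against 2. The rule itself used the lowest full sunlight and highest low light values, so the shares also depend on the choice of genes.

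**Figure D3:**
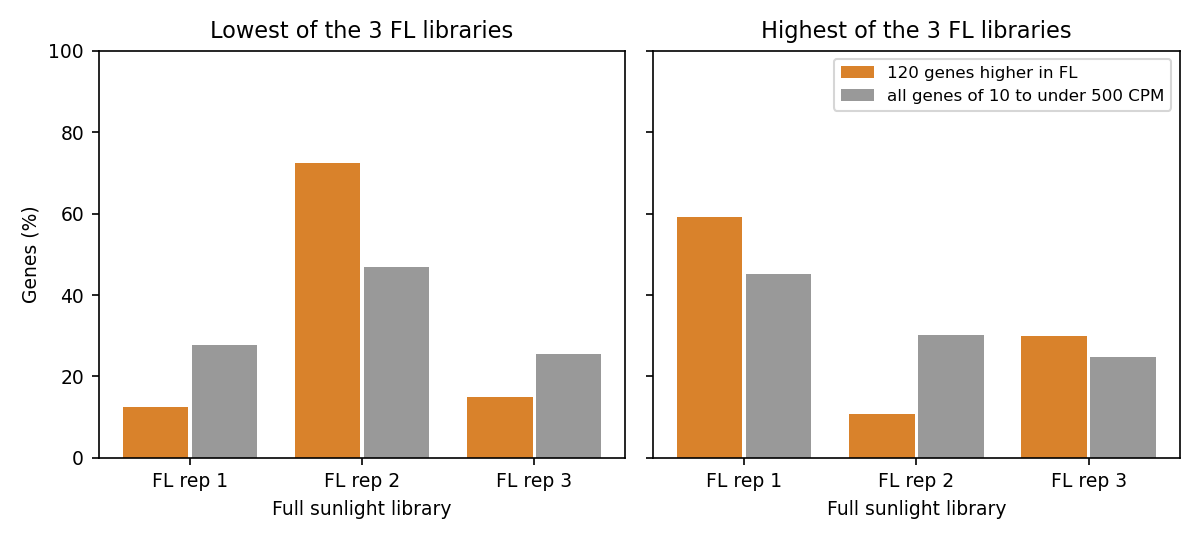
Percent of genes in which each full sunlight (FL) library gave the lowest (left) or highest (right) of the 3 FL values, for the 120 genes (orange) and for all 15284 genes of 10 to under 500 mean CPM (grey). FL2 is lowest in 72.5% of the 120 genes and in 46.8% of the range.

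The genes differed in how even their full sunlight values were. In 35 genes the highest full sunlight value was under 1.25 times the lowest, in 65 it was 1.25 to under 2 times, and in 20 at least 2 times. Of those 20, FL1 was the highest and FL2 the lowest in 18. Their medians were 44.3, 20.5 and 27.8 CPM in FL1 to FL3 and 4.91, 5.88 and 5.31 CPM in LL1 to LL3. The 35 even genes had medians of 37.8, 38.2 and 40.1 CPM in full sunlight and 10.2, 12.8 and 12.2 CPM in low light. On the log2 scale, the uneven genes had a median fold change of 2.08 and the even ones of 1.36, with median SEs of 0.28 and 0.17. A gene with 1 low full sunlight library had to have low values in low light to pass the rule, so this contrast in fold change is partly set by the choice of genes. Another entry in the component was found for 2 of the 20 uneven genes, 27 of the 65 between, 17 of the 35 even genes and 55.4% of the range. The uneven genes were also less abundant than the even ones, with a median mean level of 16.0 against 25.5 CPM. Their median effective length was 1088 bases, against 1621 bases for the even ones, and no link with evenness was tested.

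The extremes show the range of this behaviour. The widest spread was in a gene with 44.8, 10.03 and 21.7 CPM in FL1 to FL3, against 2.39, 2.01 and 2.54 CPM in LL1 to LL3. Its full sunlight values spanned 4.46 times, and even the lowest was 3.95 times the highest low light value. The narrowest span was that of a gene with 14.4, 15.0 and 13.9 CPM in full sunlight and 5.50, 6.48 and 5.41 CPM in low light, a span of 1.08 times. The low light libraries were not equal either: LL2 was the highest of its group in 65 genes (54.2%, against 34.7% of the range) and LL1 the lowest in 61 (50.8%, against 36.1%). Relative to the mean of the other 2 low light libraries, LL2 had a median log2 ratio of 0.22 in the 120 genes and -0.02 in the range. In the 120 genes, the coefficient of variation had a median of 18.4% among full sunlight and 15.6% among low light libraries. In the range it was 13.1% and 11.6%. The rule used these same values, so neither the spreads nor the orders are free of the choice of genes. The median mean level over all 6 libraries was 23.3 CPM for the 120 genes and 27.7 CPM for the range. The median gene of the set stood at 8.58 to 11.7 CPM in low light and at 31.5 to 41.2 CPM in full sunlight. Counting error is relatively larger at lower counts, and its part in these spreads was not tested.

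Length was not part of the rule. The 120 genes had a median effective length of 1577 bases, with quartiles of 722 and 2189, and the range had a median of 1287 with quartiles of 798 and 1888. Both ends were fuller than in the range: 22 genes (18.3%, against 11.0% of the range) were under 500 bases and 35 (29.2%, against 21.7%) at least 2000 bases. The 22 short genes had a median mean level of 18.8 CPM and a median log2 fold change of 1.69, and the 35 long genes had 33.9 CPM and 1.52. Genes are not replicates, so no test was made of these lengths.

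On FPKM, 94 of the 120 genes still had a lowest full sunlight value at least 2 times the highest low light value. In 19 the FPKM ratio was 1.5 to under 2, in 6 it lay between 1 and 1.5, and in 1 the groups overlapped. FPKM divides by length, and RSEM, which the submitters' processing notes name, weights a gene's length by the abundance of its transcripts. The 2 scales therefore part where the effective length differs between libraries. That length was computed here from the count and FPKM, so it restates the gap between the scales and does not account for it. The gene whose groups overlapped had 739, 627 and 595 counts in FL1 to FL3 and 187, 226 and 171 counts in LL1 to LL3. Its effective length was 163, 159 and 169 bases in full sunlight, against 43.5, 86.3 and 42.3 bases in low light. Its FPKM values, from which these lengths were computed, were 307, 247 and 235 in full sunlight and 285, 175 and 270 in low light.

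A second gene of this kind had an effective length of 1128, 1038 and 1222 bases in FL1 to FL3, against 557, 583 and 581 bases in LL1 to LL3. It had 451, 542 and 414 counts in full sunlight and 188, 183 and 182 counts in low light, but 27.1, 32.7 and 22.6 FPKM in full sunlight and 22.4, 21.0 and 20.9 FPKM in low light. Another had 1051, 986 and 997 bases in full sunlight, against 488, 619 and 533 bases in low light. The opposite also occurred: a gene with 140, 88.7 and 121 bases in full sunlight had 175, 286 and 175 bases in low light. Its FPKM values were 234, 240 and 249 in full sunlight and 45.8, 29.5 and 50.4 in low light, farther apart than its counts. In the limma fit on log2(FPKM + 1), a scale that understates changes of low values, these 3 genes with larger effective lengths in full sunlight, in the order given, differed by 0.13, 0.33 and 0.66 (adjusted p = 0.711, 0.231 and 0.0857), and none of them was called.

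Changes of effective length were tested across all genes with limma's treat test, for a change beyond 1.2-fold, a test chosen after these lengths had been seen. None of the 120 genes passed at a Benjamini-Hochberg adjusted p under 0.05, as 0% of the 29819 genes tested did. At an unadjusted p under 0.05 there were 8 of the 120 genes and 360 of the 29819 (1.21%). The gene with 1128 bases in FL1, whose log2 change of length was 0.97 (SE 0.07), had an adjusted p of 0.42 by limma's treat test. With no fold minimum, 1 of the 120 genes passed, the same one, with a limma adjusted p of 0.0478, where 22 of the 29819 genes (0.0738%) did.

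**Figure D4:**
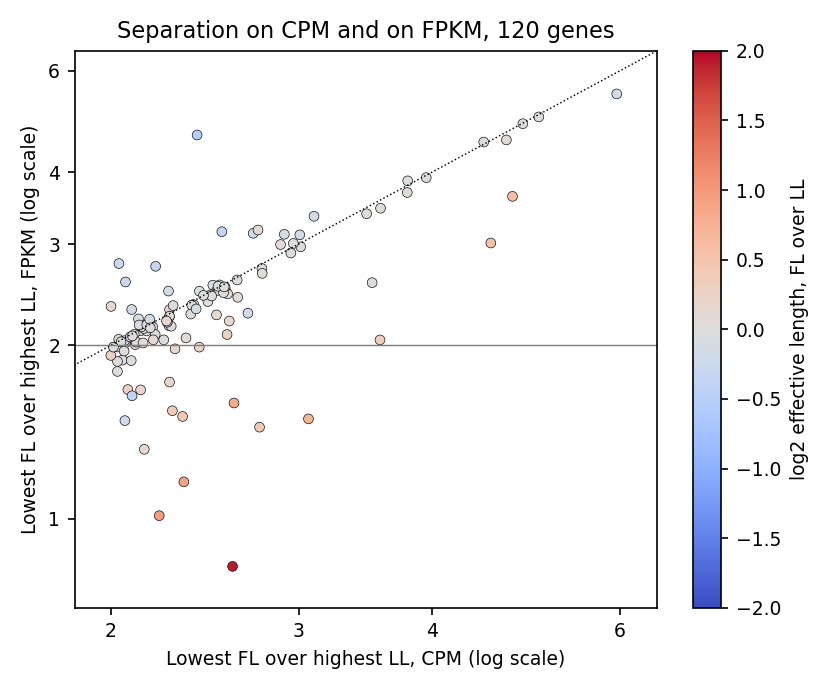
Lowest full sunlight (FL) over highest low light (LL) value on CPM (x, log axis) and on FPKM (y, log axis) for each of the 120 genes, coloured by the log2 ratio of effective length, FL over LL. The dotted line marks equal ratios and the grey line an FPKM ratio of 2, which 94 genes reach; 1 gene lies below 1.

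Most of these genes stood alone in the assembly. The 121 genes came from 121 components, and 46 of the 120 (38.3%) shared a component with another entry, against 55.4% of the range. Counting only entries of at least 2 mean CPM, it was 30 genes (25.0%), against 34.5% of the range. In 2 cases, 2 of the genes came from 1 larger read cluster but different components. In the first, one gene had 230, 158 and 122 CPM in FL1 to FL3, against 26.4, 30.7 and 32.2 CPM in LL1 to LL3. The other had 128, 51.5 and 61.6 CPM in full sunlight and 22.7, 20.8 and 21.2 CPM in low light. In the second pair, one gene had 32.9, 16.7 and 17.4 CPM in full sunlight, against 4.51, 7.75 and 7.75 CPM in low light, and the other 22.8, 11.0 and 16.2 CPM in full sunlight, against 3.98, 3.28 and 3.54 CPM in low light. All 4 were highest in FL1. RSEM may divide a read that fits several entries between them.

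The other entries of these components were not chosen for their level in full sunlight, although those clearly higher in low light were kept out by the rule. There were 45 such entries of at least 2 mean CPM, in 30 components, and all were tested. Of these, edgeR called 11 higher in full sunlight (24.4%, where 6.77% of all tested genes were) and 1 lower (2.22%, where 8.63% were). The other 33 did not pass, and the median log2 fold change of the 45 was 0.26. Of the 11 called higher, 4 came from 1 component, so the 11 are not separate observations. All tested genes include less abundant ones than the 45 entries, so the 2 shares are not like for like. Among tested genes of the abundance range, which starts above the minimum used for these entries, edgeR called 1510 of 15283 higher. All 3 full sunlight libraries lay above all 3 low light libraries in 21 of the 45, where 30.8% of other genes of 2 to under 500 mean CPM did on this library-size scale, and below them in 4, where 13.2% did. The count of 11 fell to 5 when FL3 was left out, to 5 without LL1 and to 4 without LL3, and was 17 with library size in place of TMM. Entries of a component share sequence, so their reads are not independent of the genes beside them.

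In 1 component all 5 entries were higher in full sunlight. The gene of the set had 17.0, 14.7 and 17.0 CPM in FL1 to FL3, against 6.76, 6.55 and 5.54 CPM in LL1 to LL3. The most abundant of the other 4 had 102, 81.1 and 107 CPM in full sunlight and 47.7, 51.4 and 47.6 CPM in low light; the log2 fold change was 0.80, with an SE of 0.14 and an edgeR adjusted p of 0.00568. The other 3 had log2 fold changes of 0.78 to 1.00, with edgeR adjusted p of 0.0128 to 0.0461. In another component, the gene of the set had 30.2, 30.6 and 40.8 CPM in full sunlight, against 9.88, 14.9 and 8.68 CPM in low light. The more abundant entry beside it had 80.3, 90.6 and 124 CPM in full sunlight and 28.4, 48.6 and 33.9 CPM in low light; the log2 fold change was 1.23, with an SE of 0.23 and an edgeR adjusted p of 0.00698.

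Other genes of the set lay beside a more abundant entry that was not higher in full sunlight. Of 15 entries more abundant than the gene of the set beside them, 6 lay above low light in all full sunlight libraries, 2 lay below it and 7 overlapped, where 30.8% of other genes of 2 to under 500 mean CPM lay above and 13.2% below, so these shares are near those of other genes. The largest contrast of abundance was between a gene with 41.2, 30.2 and 59.0 CPM in FL1 to FL3 and 8.02, 14.8 and 10.5 CPM in LL1 to LL3, and its neighbour. That neighbour had 284, 382 and 334 CPM in full sunlight and 358, 411 and 435 CPM in low light; the log2 fold change was -0.44, with an SE of 0.17 and an edgeR adjusted p of 0.113. The single entry called lower had 19.2, 24.6 and 21.3 CPM in full sunlight, against 26.4, 31.5 and 28.9 CPM in low light; the log2 fold change was -0.59, with an SE of 0.16 and an edgeR adjusted p of 0.0325. The gene of the set beside it had 32.1, 38.2 and 38.6 CPM in full sunlight and 8.62, 12.8 and 12.0 CPM in low light.

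**Figure D5:**
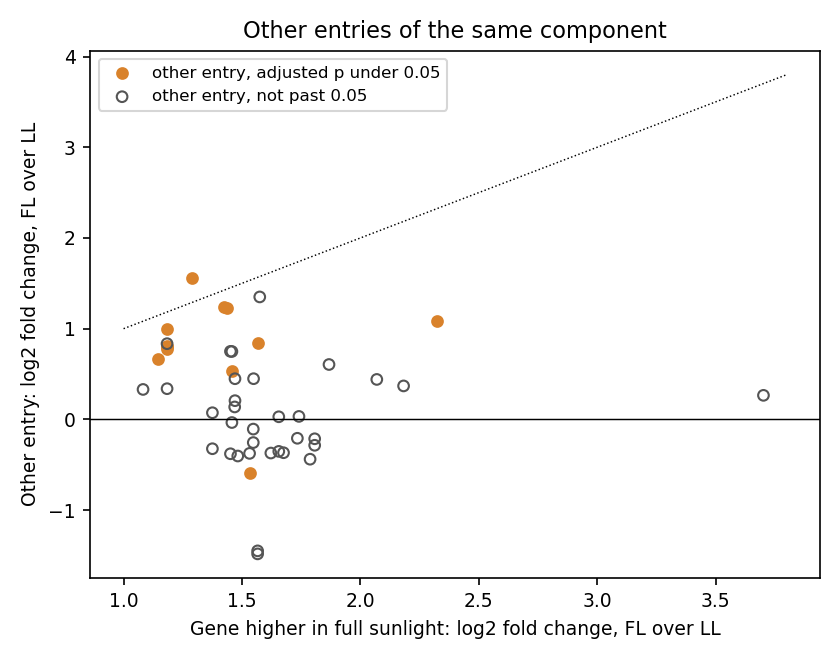
Log2 fold change, full sunlight (FL) over low light (LL), of the 45 other entries of at least 2 mean CPM (y) against that of the gene of the set in the same component (x). Filled points passed an edgeR adjusted p of 0.05 (11 higher and 1 lower), open points did not; the dotted line marks equal values.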

How the data were processed

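RNA of leaves was extracted with a Trizol kit and made into NEBNext Ultra libraries, per the labels' protocols. The deposited table gives for each assembled gene an estimated count, as whole numbers, and an FPKM value in 6 libraries. Per the submitters' processing notes RSEM was used. Not given in the sources used here: its version, the aligner, any filter and the assembly settings. The authors' FPKM are scaled to length and library size.

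The genes and classes described were chosen with earlier results of these data known. CPM was computed by library size. The effective length is proportional to the count divided by FPKM and by the total count, in bases, and is given as the median over libraries with at least 10 counts. The contrast was fitted with edgeR 4.0.16 (R 4.3.3) on the estimated counts: filterByExpr, TMM, quasi-likelihood test, light as the sole term, adjustment over all 40084 genes. Effective lengths were tested with limma 3.58.1, on genes with at least 10 counts and 1 FPKM in every library. Alternatives used DESeq2 1.42.0, limma with voom or on log2 FPKM, other scalings and filters, and fewer libraries. The fits were tested on simulated data: the edgeR fit made more false calls than its threshold allows, and the length test missed part of the changes put in.

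By the naming rule, the identifiers printed are the most abundant gene, the gene with 0 in low light, and the opposite entry beside the dropped gene. TRINITY_DN4484_c0_g1, with the largest defined ratio, was added after its values were seen, and genes given by rank include some singled out by length or component after their values were seen. No 2 libraries of a group agreed within sampling noise (chi-square per degree of freedom at least 8.60). Each counted as 1 sample, although this does not show that they came from separate plants.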

Additional observations from a re-analysis of the deposited data

How the results depend on the processing

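The number of genes meeting the rule depended on its settings. It was 74 on TMM-scaled CPM, 586 with a ratio of 1.5, 19 with a ratio of 3 and 315 from 2 CPM upward, and 117 to 325 when each library was left out. On FPKM it was 108, of which 95 were shared with the 121. The entry read in FL1 alone is in each of these counts except that without FL1. For the 120 genes, the edgeR call was kept under each other scaling, DESeq2, limma-voom, no count filter and the replicate block. It ended for 1 gene without full sunlight replicate 3, for 1 at an adjusted p under 0.01, and for 5 and 6 genes in the limma fits on log2(FPKM + 1) and log2(FPKM + 0.1). None of the 120 changed direction, which the choice of genes largely fixes, and their median log2 fold change stayed at 1.53 to 1.76.

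Over all genes, those called higher numbered 2714, but 5187 with library size alone, 727 at an adjusted p under 0.01 and 933 to 3767 when each library was left out. The other entries of the components called higher numbered 11, but 17 with library size alone, 4 at an adjusted p under 0.01 and 4 to 12 when each library was left out. Genes with another entry in their component numbered 46, but 30 when only entries of at least 2 mean CPM counted. With no fold minimum, 1 gene of the set passed for effective length, where 0.0738% of the genes tested did, and 0 when each library was left out at 1.2-fold. Without a count filter the entry read in a single library was called too. It had counts in 1 of 3 full sunlight libraries, so that call is not used.

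Replicate numbers were not taken as pairs, since the labels do not say that they mark a shared plant or day, and same-numbered libraries deviated from their group means with correlations of 0.02, -0.05 and -0.03. The replicate block called 1883 genes and all 120 of the set. The component results, the effective length test and the set without the single-library entry were added after seeing the data. Depth was at least 19 counts per library for the 120 genes.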

Other observations

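The abundance limits leave out genes with the same behaviour. From 2 to under 10 mean CPM, 192 of 12832 genes had a lowest full sunlight value at least 2 times the highest low light value. Another 2 entries met it only as 0 against 0, with no counts in low light or in their lowest full sunlight library. The 315 genes found from 2 CPM upward include them. None of the 192 shared a component with an opposite entry. Of the 154 genes at 500 CPM or more, 0 met that ratio. The mirrored rule, with full sunlight and low light exchanged, gave 107 genes against the 121 of the rule as used. On the library-size scale the median of all genes lies above 0, so these 2 numbers are not a balance of responses.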
